A study of Mus musculus with 5 samples.

Results

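Described here are 9 genes that encode myosin light chains (Myl1, Mylpf, Myl2, Myl3, Myl4, Myl6 and Myl6b) or light chain kinases (Mylk2 and Mylk4). They were picked by gene symbol from the 17015 genes of the deposited RNA-seq table, and all 9 were among the 12148 genes that were tested, those with a mean of at least 0.5 FPKM. FPKM is the number of fragments per kilobase of transcript, here with the authors' scaling between libraries. The muscle was tibialis anterior (TA), a mainly fast-twitch leg muscle, taken from sedentary male mice at 8 weeks of age. The 3 WT control libraries stand for Cre-negative littermates from a cross of Nrip1 fl/fl mice on a C57BL/6J background. The 2 remaining libraries are labelled skmNrip1-/-, a line in which Cre driven by the myogenin promoter removes the floxed coding exon of Nrip1, the gene for the corepressor RIP140, in skeletal muscle. These mice received no training, and cells of the muscle that do not use the myogenin promoter keep the floxed gene. The table holds fewer libraries labelled skmNrip1-/- than the mice given for that group. The labels number the replicates without tying each library to an animal, so the p-values measure the spread between these libraries, which may be technical.

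Nrip1 went against the label. Its level in FPKM was 4.64, 7.69 and 6.55 in the WT control group, by replicate number, and 25.3 and 22.5 in the labelled group (log2 fold change 1.94, SE 0.21, adjusted p = 0.0261, limma with Benjamini-Hochberg adjustment over all tested genes). The table has a single value per gene, so reads on the exon that Cre removes cannot be told apart from reads on the exons that stay. Every direction given for the myosin light chains therefore rests on the labels as deposited. Fast fibre markers summed to between 68615 and 101474 FPKM in the 5 libraries and slow fibre markers to between 122 and 212 FPKM, which is the profile of a fast muscle. WT control replicate 1 had the highest sum of fast fibre markers and WT control replicate 3 the highest sum of slow fibre markers, the latter through Myoz2, and values without these libraries are given where they matter. The depth, read from the steps between the lowest FPKM values, was 0.814 to 1.10 times that of WT control replicate 1.

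Each myosin head carries an essential and a regulatory light chain, which wrap around the lever arm and stiffen it. Fast fibres use the essential chains made from Myl1 and the regulatory chain Mylpf, whereas slow fibres and the heart ventricle use Myl3 and Myl2. In muscle, calcium and calmodulin activate a light chain kinase that phosphorylates the regulatory chain and raises the force of later twitches, and a myosin phosphatase reverses this.

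The promoters of the fast pair, Myl1 and Mylpf, and of the slow pair, Myl3 and Myl2, are shown because the report turns on these 4 genes. They come from RefSeq on GRCm38.p6 and run 300 bases each, most of it before the transcription start. Capitals mark the matches to 5 motifs that were searched on both strands: the E-box CANNTG bound by myogenic factors, the nuclear receptor core motif AGGTCA, the M-CAT element CATTCCT, the MEF2 core CTANNNNTAG, and the CArG box bound by serum response factor. The Myl1 window is chr1:66945007-66945306 on the minus strand, the Mylpf window chr7:127211358-127211657 on the plus strand, the Myl3 window chr9:110763428-110763727 on the plus strand, and the Myl2 window, the nearer to the annotated gene of the pair that RefSeq gives, chr5:122092939-122093238 on the plus strand.
Myl1: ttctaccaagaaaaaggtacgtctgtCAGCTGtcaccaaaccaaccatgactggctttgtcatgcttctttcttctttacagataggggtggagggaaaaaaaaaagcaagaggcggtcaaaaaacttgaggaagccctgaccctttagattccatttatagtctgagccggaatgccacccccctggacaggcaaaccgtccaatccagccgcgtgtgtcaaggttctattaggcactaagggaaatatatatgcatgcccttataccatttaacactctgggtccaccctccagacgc
Mylpf: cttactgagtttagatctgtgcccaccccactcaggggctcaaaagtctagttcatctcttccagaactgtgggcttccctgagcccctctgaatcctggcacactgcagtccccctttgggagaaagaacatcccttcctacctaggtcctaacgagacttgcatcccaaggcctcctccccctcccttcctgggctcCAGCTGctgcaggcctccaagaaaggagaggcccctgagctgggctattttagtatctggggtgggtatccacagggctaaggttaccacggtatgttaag
Myl3: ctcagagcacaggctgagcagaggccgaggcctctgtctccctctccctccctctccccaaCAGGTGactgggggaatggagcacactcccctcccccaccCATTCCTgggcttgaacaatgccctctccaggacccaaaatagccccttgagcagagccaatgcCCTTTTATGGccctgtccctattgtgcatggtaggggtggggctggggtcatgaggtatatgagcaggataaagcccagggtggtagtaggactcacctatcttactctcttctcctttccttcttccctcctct
Myl2: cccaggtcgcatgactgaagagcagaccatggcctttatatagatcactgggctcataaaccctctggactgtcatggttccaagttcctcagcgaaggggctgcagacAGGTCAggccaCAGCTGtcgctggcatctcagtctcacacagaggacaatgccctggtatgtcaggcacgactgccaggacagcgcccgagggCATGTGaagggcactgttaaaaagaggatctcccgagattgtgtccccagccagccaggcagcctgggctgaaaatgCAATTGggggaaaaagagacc
The fast promoters held a single E-box each, at -224 from the start in Myl1 and at -51 in Mylpf. The Myl3 window held an E-box at -189, an M-CAT element at -149 and a CArG box at -85. The Myl2 window held E-boxes at -130, -48 and 29 and the nuclear receptor core motif at -141. The other Myl2 window, chr5:122092474-122092773, held E-boxes at -22 and 33 and no match to the other motifs. None of the 4 windows had the MEF2 core. Among 32817 promoter windows of this length, 72.3% held an E-box, 16.3% the nuclear receptor core motif, 5.35% the M-CAT element, 3.69% the MEF2 core and 1.63% a CArG box. A match describes the letters only. The Myl2 window printed above belongs to a RefSeq start that lies 7762 bases before the gene start in the GENCODE annotation, and the start of the other Myl2 window lies 8227 bases before it. The starts of the Myl1, Mylpf and Myl3 windows lie at most 87 bases from an annotated transcript start. RefSeq gave 10 windows for 8 of the 9 genes, with no entry for Mylk2.

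The fast chains were among the most abundant transcripts of the muscle. Myl1 (ENSMUSG00000061816, chr1:66924295-66945404), the fast essential chain gene, was at 11829, 8207 and 8238 FPKM in WT control and at 6723 and 6338 FPKM in the group labelled skmNrip1-/-. Mylpf (ENSMUSG00000030672, chr7:127208890-127214298), the fast regulatory chain gene, was at 11369, 7397 and 7958 FPKM in WT control and at 6716 and 6951 FPKM in the labelled pair. For both genes each labelled library was below each WT control library, and WT control replicate 1 stood well above the other WT control libraries. The log2 fold change on log2(FPKM + 0.1) was -0.51 for Myl1 (SE 0.22, 95% interval -1.02 to 0.01, limma adjusted p = 0.426) and -0.36 for Mylpf (SE 0.22, 95% interval -0.89 to 0.18, limma adjusted p = 0.605), and neither gene was called. Without WT control replicate 1 the differences were -0.33 and -0.17. In rank among all genes of a library, Myl1 held places 20 to 21 in WT control and 25 to 26 in the labelled pair, and Mylpf places 21 to 23 and 24 to 26. Of the 31-base words in Myl1 transcripts, 14.5% also occur in another gene, the pseudogene Mylf-ps, which was listed at between 0.741 and 4.40 FPKM, and Mylpf shared 0% of its words.

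**Figure D1:**
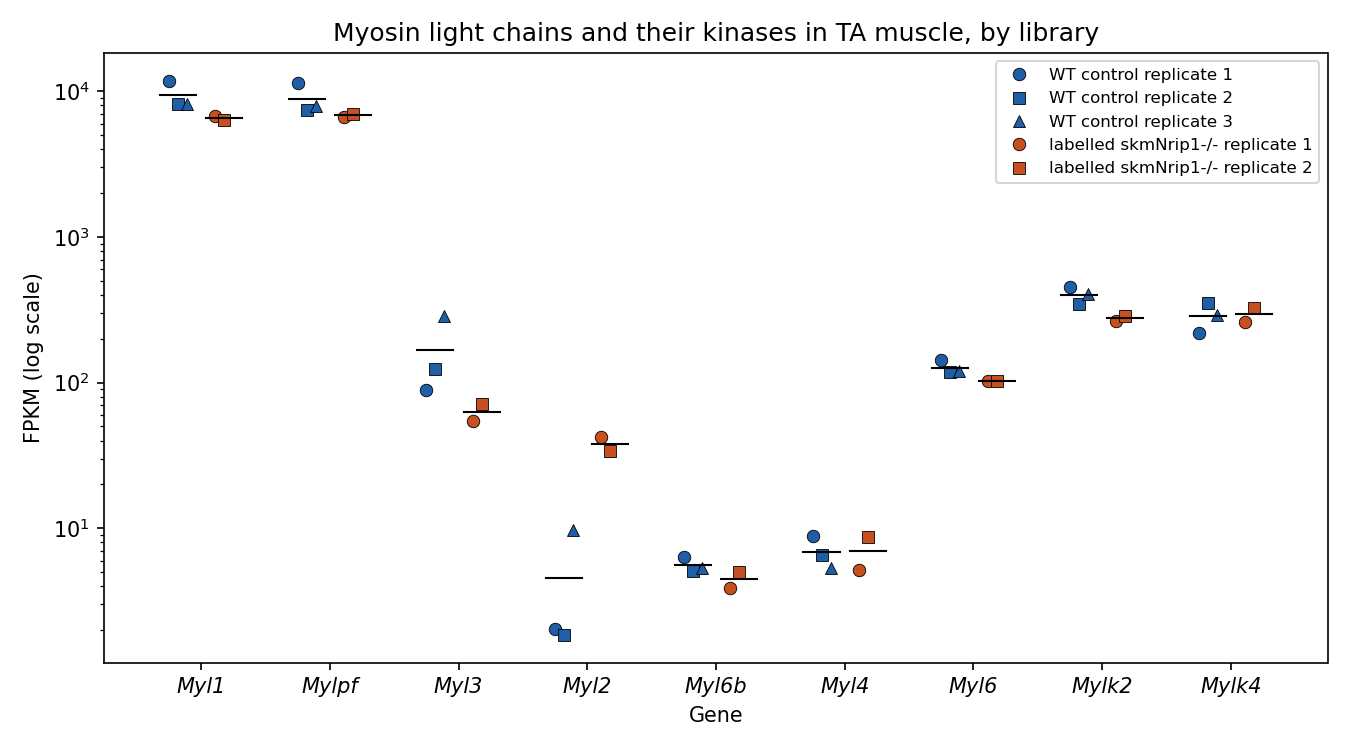
FPKM of the 9 genes on a log scale, with circles, squares and triangles for replicates 1, 2 and 3, blue for WT control, orange for the libraries labelled skmNrip1-/-, and a bar at each group mean. Myl2 is the gene whose labelled libraries, at 42.1 and 33.6 FPKM, sit above all WT control libraries, and Myl4 and Mylk4 are the genes whose groups overlap.

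The slow chains differed from each other. Myl2 (ENSMUSG00000013936, chr5:122100951-122113472), which encodes the slow and ventricular regulatory chain, was at 2.03, 1.85 and 9.68 FPKM in WT control and at 42.1 and 33.6 FPKM in the libraries labelled skmNrip1-/-. The groups did not overlap, and WT control replicate 3 was several times above the other WT control libraries. The group means were 4.52 ± 4.47 FPKM (SD, n = 3) and 37.9 ± 5.98 FPKM (SD, n = 2). The log2 fold change was 3.46 (SE 0.67, 95% interval 1.85 to 5.06), an 11.0-fold difference with an interval of 3.61-fold to 33.3-fold, and its limma adjusted p of 0.127 missed the threshold. Leaving out WT control replicate 3 gave a log2 fold change of 4.21 and a limma adjusted p of 0.00366, past the threshold, and over all alternatives tried the limma adjusted p ranged from 0.00366 to 0.477 with the log2 fold change between 3.05 and 4.21. An estimate of the fragments behind these values, from the FPKM steps and the longest annotated transcript, was 57, 57 and 270 in WT control and 950 and 910 in the labelled pair. In rank, Myl2 held places 8989, 9305 and 4627 in WT control and places 1511 and 1815 in the labelled pair. Its nearest neighbour in the table was Ppp1cc, 44805 bases away.

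Myl3 (ENSMUSG00000059741, chr9:110741861-110769798), the slow and ventricular essential chain gene, was at 89.6, 124 and 285 FPKM in WT control and at 54.1 and 71.3 FPKM in the labelled pair. Both labelled libraries were below all WT control libraries, among which replicate 3 was again the highest. The log2 fold change was -1.24 (SE 0.45, 95% interval -2.33 to -0.16), with an unadjusted limma p of 0.0307 and an adjusted p of 0.359, so Myl3 was not called. Without WT control replicate 3 it was -0.76. Myl3 shared 4.13% of its 31-base words with other genes, chiefly Pth1r, which overlaps it on the other strand and was listed at between 0.666 and 1.73 FPKM. In bulk muscle, fewer cells of a type cannot be told apart from less RNA per cell, for these and for all later values.

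**Figure D2:**
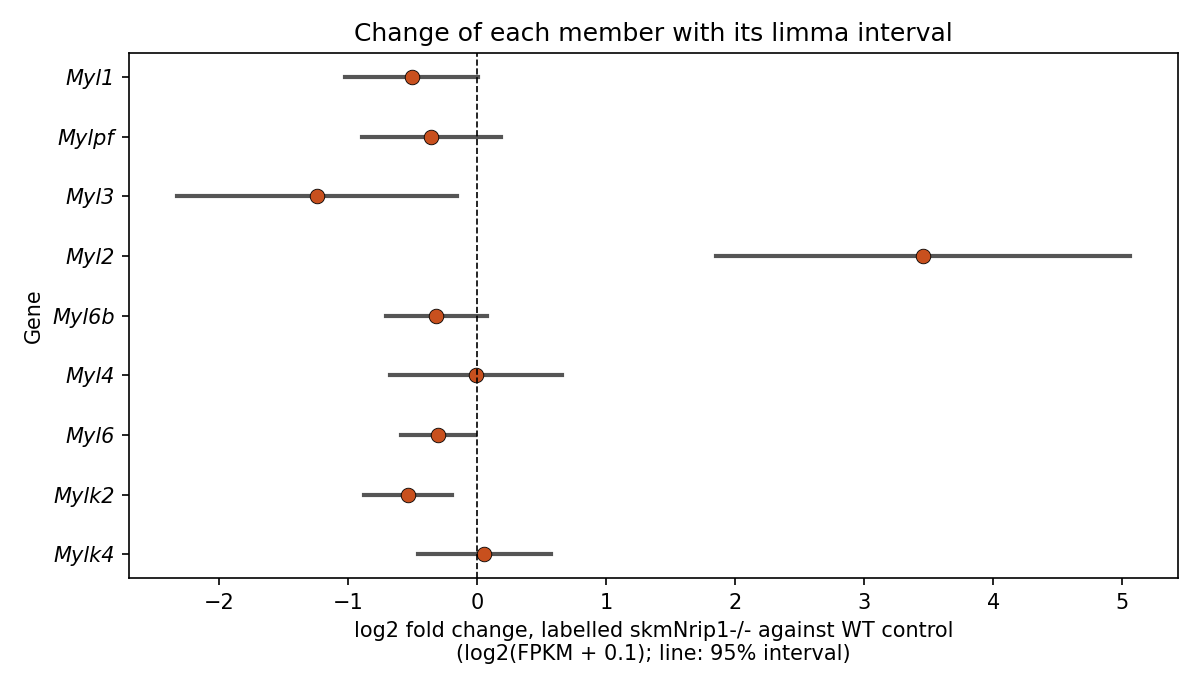
Log2 fold change of each gene, labelled skmNrip1-/- against WT control, on log2(FPKM + 0.1) (horizontal axis), with a line for the 95% limma interval. Myl2 lies at 3.46 with an interval above 0, Myl3, Myl6 and Mylk2 have intervals below 0, and the other intervals cross 0.

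None of the 9 genes was called higher, where 0.37% of all tested genes were, and none was called lower, where 0.0823% were, with the call set at a limma adjusted p no higher than 0.05 and a fold of 1.2 or more. At an unadjusted limma p of 0.05 or less, 1 of the 9 genes was higher (Myl2, against 6.57% of all tested genes) and 3 were lower (Myl3, Myl6 and Mylk2, against 5.33%). Groups that did not overlap were found for 1 gene with higher values in the labelled libraries, where 15.8% of all tested genes had them, and for 6 genes with lower values, where 14.4% had them. The median log2 fold change was -0.32 over the 9 genes and -0.00 over all tested genes, with 2 genes above 0 and 7 below.

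Ratios within a library set slow against fast isoforms without the scaling between libraries. With 3 and 2 libraries there are 10 splits, so an exact permutation test cannot give a two-sided p below 0.2 or a one-sided p below 0.1, and no ratio could pass 0.05. For the regulatory chains, the log2 ratio of Myl2 to Mylpf was -12.45, -11.96 and -9.68 in WT control and -7.32 and -7.69 in the labelled pair, with no overlap. Myl2 made up 0.0179%, 0.0250% and 0.122% of the summed FPKM of these regulatory chains in WT control, and 0.623% and 0.481% in the libraries labelled skmNrip1-/-. The difference of 3.86 on the log2 scale, or 14.5-fold, had the smallest p that the exact test allows, 0.2 two-sided, and the difference was 4.70 without WT control replicate 3. Mylpf thus remained above 99% of this sum in each library, and its lowest share was 99.4%.

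For the essential chains, the log2 ratio of Myl3 to Myl1 was -7.05, -6.04 and -4.85 in WT control and -6.96 and -6.47 in the labelled pair. These groups overlapped, since WT control replicate 1 had the lowest ratio of all. The difference was -0.73 (exact two-sided permutation p = 0.6), and it was -0.17 without WT control replicate 3 and -1.27 without WT control replicate 1. Myl3 made up 0.751%, 1.49% and 3.35% of the sum of Myl3 and Myl1 in WT control and 0.799% and 1.11% in the labelled pair.

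Further ratios were chosen after the data were seen. The log2 ratio of Myl2 to Myl3, the regulatory and essential chains of slow myosin, was -5.46, -6.07 and -4.88 in WT control and -0.36 and -1.08 in the labelled pair, a difference of 4.75 or 26.9-fold with no overlap (exact two-sided permutation p = 0.2). The log2 ratio of Myl1 to Mylpf, the partners in fast myosin, was 0.06, 0.15 and 0.05 in WT control and 0.00 and -0.13 in the labelled pair, a difference of -0.15 with no overlap (exact two-sided permutation p = 0.2). The fast partners thus lay near parity in each library, while the slow partners were far from it in WT control and closer to it in the labelled pair. Over all 5 essential chains and both regulatory chains, the log2 ratio of essential to regulatory FPKM was 0.09, 0.19 and 0.12 in WT control and 0.03 and -0.10 in the labelled pair, a difference of -0.17 with no overlap (exact two-sided permutation p = 0.2).

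**Figure D3:**
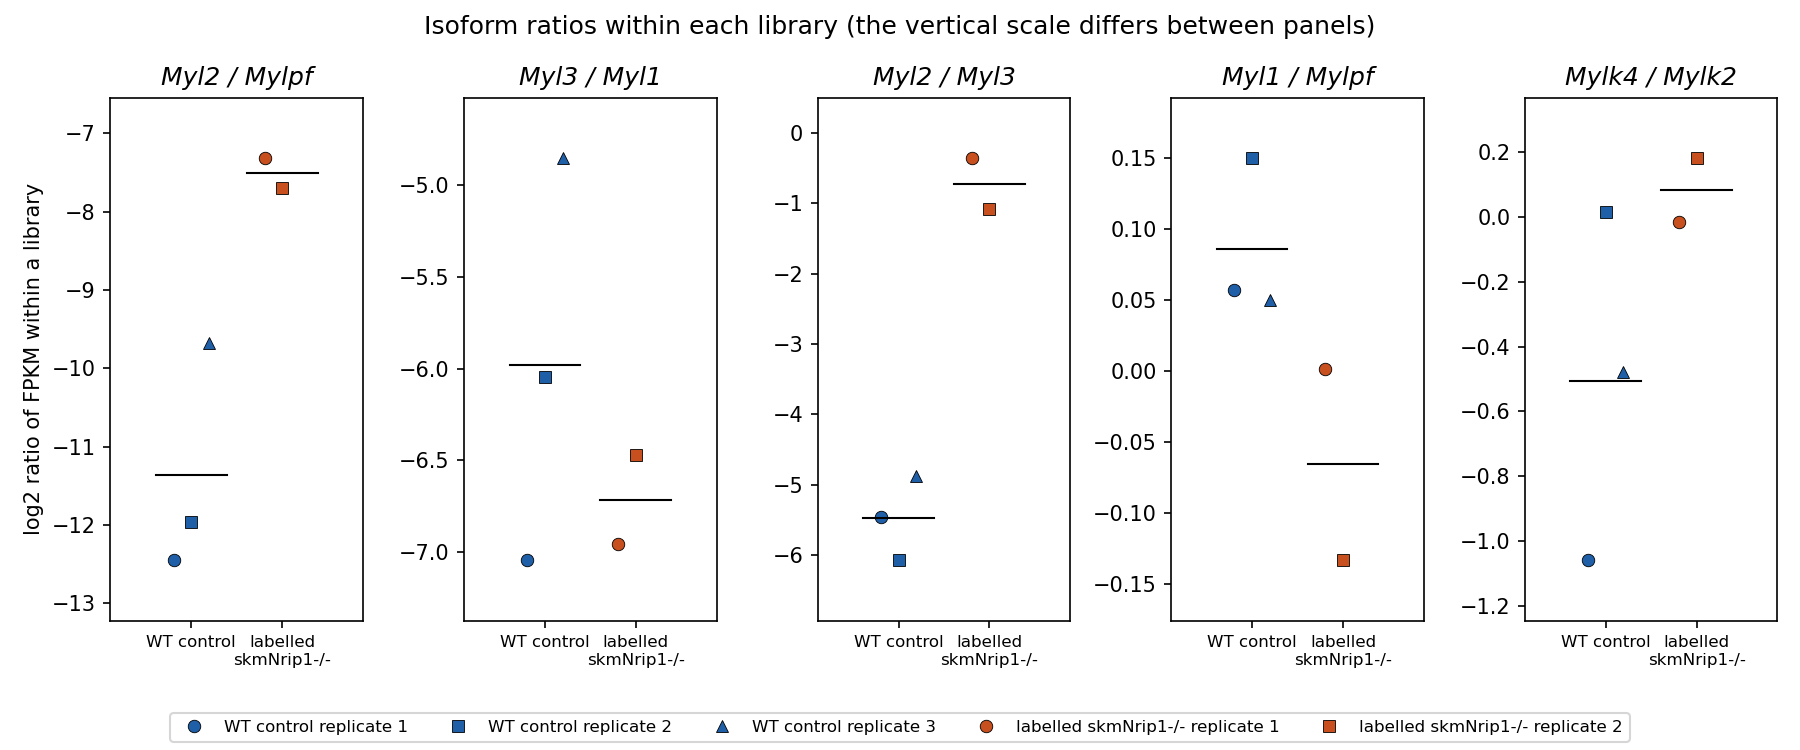
Log2 ratio of FPKM within a library for 5 pairs of genes, with a point per library (blue for WT control, orange for libraries labelled skmNrip1-/-) and a bar at each group mean. The vertical scale differs between panels. The groups lie apart for Myl2 to Mylpf, Myl2 to Myl3 and Myl1 to Mylpf, and overlap for Myl3 to Myl1 and Mylk4 to Mylk2.

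The remaining essential chains are those of non-muscle, embryonic and atrial myosin. Myl6 (ENSMUSG00000090841, chr10:128490860-128494145), the essential chain gene of non-muscle and smooth muscle myosin, was at 143, 118 and 120 FPKM in WT control and at 103 and 102 FPKM in the labelled pair. The groups did not overlap, and the log2 fold change of -0.30 (SE 0.12, 95% interval -0.59 to -0.01) had a limma adjusted p of 0.396. Myl6 shared 11.4% of its 31-base words with other genes, mainly pseudogenes, of which Gm5526, Gm5915 and Gm8894 were listed at no more than 3.91 FPKM in any library. Myl6b (ENSMUSG00000039824, chr10:128494157-128498685), an essential chain gene used in slow skeletal and non-muscle myosin, lies 11 bases upstream of Myl6 on the same strand. It was at 6.30, 5.09 and 5.33 FPKM in WT control and at 3.91 and 5.04 FPKM in the labelled pair, apart by only the gap between 5.04 and 5.09 (log2 fold change -0.32, 95% interval -0.70 to 0.07, limma adjusted p = 0.517).

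Myl4 (ENSMUSG00000061086, chr11:104550663-104595753), the embryonic and atrial essential chain gene, was at 8.79, 6.54 and 5.36 FPKM in WT control and at 5.16 and 8.70 FPKM in the labelled pair. The groups overlapped, and the log2 fold change was -0.01 with a 95% interval of -0.68 to 0.65 (limma adjusted p = 0.994), so neither a rise nor a fall of up to about that size can be told from no difference. Its sign changed without WT control replicate 1 and without labelled replicate 1. Of the summed FPKM of the 5 essential chains, Myl1 made up between 95.2% and 98.0% in each library, Myl6 between 1.18% and 1.56%, Myl3 between 0.742% and 3.30%, Myl4 between 0.0619% and 0.133%, and Myl6b between 0.0522% and 0.0772%.

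By their means, the kinases lay between the fast chains and the slow ones. Mylk2 (ENSMUSG00000027470, chr2:152911352-152923068), the skeletal muscle light chain kinase, was at 456, 348 and 403 FPKM in WT control and at 265 and 288 FPKM in the libraries labelled skmNrip1-/-. Both labelled libraries were below all WT control libraries, with group means of 402 ± 53.9 FPKM (SD, n = 3) and 276 ± 16.5 FPKM (SD, n = 2). The log2 fold change was -0.53 (SE 0.14, 95% interval -0.88 to -0.19), with an unadjusted limma p of 0.00794 and an adjusted p of 0.241. When the values were rescaled to TPM, so that each library has the same sum, it was -0.83 with a limma adjusted p of 0.0485, past the threshold, and the limma adjusted p ranged from 0.0485 to 0.761 over the alternatives. That rescaling also moved the median of all genes to -0.29, because the FPKM sum was 969144 to 1144710 in WT control and 1286250 and 1288040 in the labelled pair.

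Mylk4 (ENSMUSG00000044951, chr13:32700834-32783954), a kinase of the same family found in striated muscle, was at 219, 352 and 289 FPKM in WT control and at 262 and 327 FPKM in the labelled pair, with overlapping groups. Its log2 fold change was 0.06 (SE 0.21, 95% interval -0.46 to 0.57, limma adjusted p = 0.950), and it was -0.24 after rescaling to TPM. The log2 ratio of Mylk4 to Mylk2 was -1.06, 0.02 and -0.48 in WT control and -0.01 and 0.18 in the labelled pair. These groups overlapped, and the difference of 0.59 had an exact two-sided permutation p of 0.4. The FPKM sum of all 9 genes was 2.11%, 1.61% and 1.79% of the library total in WT control and 1.10% of it in both labelled libraries.

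In WT control the order of mean levels per length was Myl1, Mylpf, Mylk2, Mylk4, Myl3, Myl6, Myl4, Myl6b and Myl2. Neighbours in this order were separated in all libraries only between Mylpf and Mylk2 and between Myl6 and Myl4. In the libraries labelled skmNrip1-/- the order was Mylpf, Myl1, Mylk4, Mylk2, Myl6, Myl3, Myl2, Myl4 and Myl6b, where Mylpf overlapped with Myl1 and Mylk4 with Mylk2 and the other neighbours did not overlap. Myl2, the lowest in WT control by its mean, stood above Myl4 and Myl6b in the labelled pair.

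Genes around the light chains showed no calls either. Of the other myosin light chain genes, Myl9, Myl10, Myl12a and Myl12b were tested, with a median log2 fold change of -0.01, and Myl5 and Myl7 were not analysed here. The highest was Myl10 at 0.28, and the lowest was Myl12b, a regulatory chain gene of non-muscle myosin, at -0.58, with 20.0, 18.2 and 16.3 FPKM in WT control and 11.6 and 12.5 FPKM in the labelled pair (limma adjusted p = 0.154). The enzymes and regulators of light chain phosphorylation, with 20 of 22 genes tested, had a median of -0.09, with 6 above 0 and 14 below. At an unadjusted limma p of 0.05 or less 1 was higher, against 6.57% of all tested genes, and 1 lower, against 5.33%. The highest was Ppp1cc, a catalytic subunit of protein phosphatase 1, at 0.55, with 88.7, 85.2 and 80.1 FPKM in WT control and 124 FPKM in both labelled libraries (limma adjusted p = 0.110). The lowest was the calmodulin gene Calm2 at -0.37, with 143, 113 and 125 FPKM in WT control and 90.7 and 105 FPKM in the labelled pair (limma adjusted p = 0.362).

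The giant sarcomeric kinases had a median of -0.08 over 3 genes, from -0.27 for Speg to -0.03 for Ttn (titin), and none was called. The 9 sarcomeric heavy chain genes had a median of -0.10, from -0.73 for Myh6 to 0.53 for Myh3, and the 4 non-muscle and smooth muscle heavy chain genes a median of -0.09, from -0.29 for Myh10 to 0.02 for Myh14, with no calls in either list. Of 6 tested genes for myosin folding and assembly, with a median of -0.14, none was called. At an unadjusted limma p of 0.05 or less 2 were lower, against 5.33% of all tested genes. Their lowest was Mybph, a myosin-binding protein of fast muscle, at 10.1, 4.13 and 6.87 FPKM in WT control and 1.68 and 1.10 FPKM in the labelled pair (log2 fold change -2.19, limma adjusted p = 0.0953), and their highest was Mybpc1 at 0.20.

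The fibre type markers showed which libraries stood apart. Over the 8 slow fibre markers the median log2 fold change was -0.00, with 4 above 0 and 4 below, and the sum was 125, 128 and 212 FPKM in WT control and 122 and 123 FPKM in the labelled pair. An alternative added after the data were seen left out Myoz2. The sums were then 63.5, 80.0 and 76.9 FPKM in WT control and 82.4 and 88.4 FPKM in the labelled pair. In these sums replicate 3 no longer stood out and both labelled libraries lay above all WT control libraries. No slow fibre marker by itself was higher in the labelled pair without overlap. The gap in these sums, between 80.0 and 82.4 FPKM, was smaller than the spread of Casq2 alone within WT control. It therefore does not show that the slow fibre markers rose together. Casq2 was at 17.0, 29.5 and 22.7 FPKM in WT control and at 27.6 and 42.3 FPKM in the labelled pair. The slow heavy chain gene Myh7, the usual partner of Myl2 and Myl3, was at 0.659, 0.648 and 0.751 FPKM in WT control and at 1.72 and 0.449 FPKM in the labelled pair, so the groups overlapped. The lowest of these markers was Myoz2, a slow fibre Z-disc gene, at 61.3, 48.0 and 135 FPKM in WT control and 39.8 and 34.7 FPKM in the labelled pair (log2 fold change -0.98, limma adjusted p = 0.414), and the highest was Casq2 at 0.60. Myh2, the heavy chain gene of oxidative fast fibres, was at 223, 333 and 1102 FPKM in WT control and at 363 and 406 FPKM in the labelled pair, so Myl3, Myl2, Myoz2 and Myh2 were all highest among the WT control libraries in replicate 3. Over the 8 fast fibre markers the median was -0.20, with 7 below 0, from -0.77 for Actn3 to 0.05 for Myh1. Lower values without overlap were found for 3 of the 8, where 14.4% of all tested genes had them. None of the markers of either fibre type was called. At an unadjusted limma p of 0.05 or less, 1 of the 8 in each list was lower, where 5.33% of all tested genes were. The part of fibre make-up in the light chain values was not tested.

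**Figure D4:**
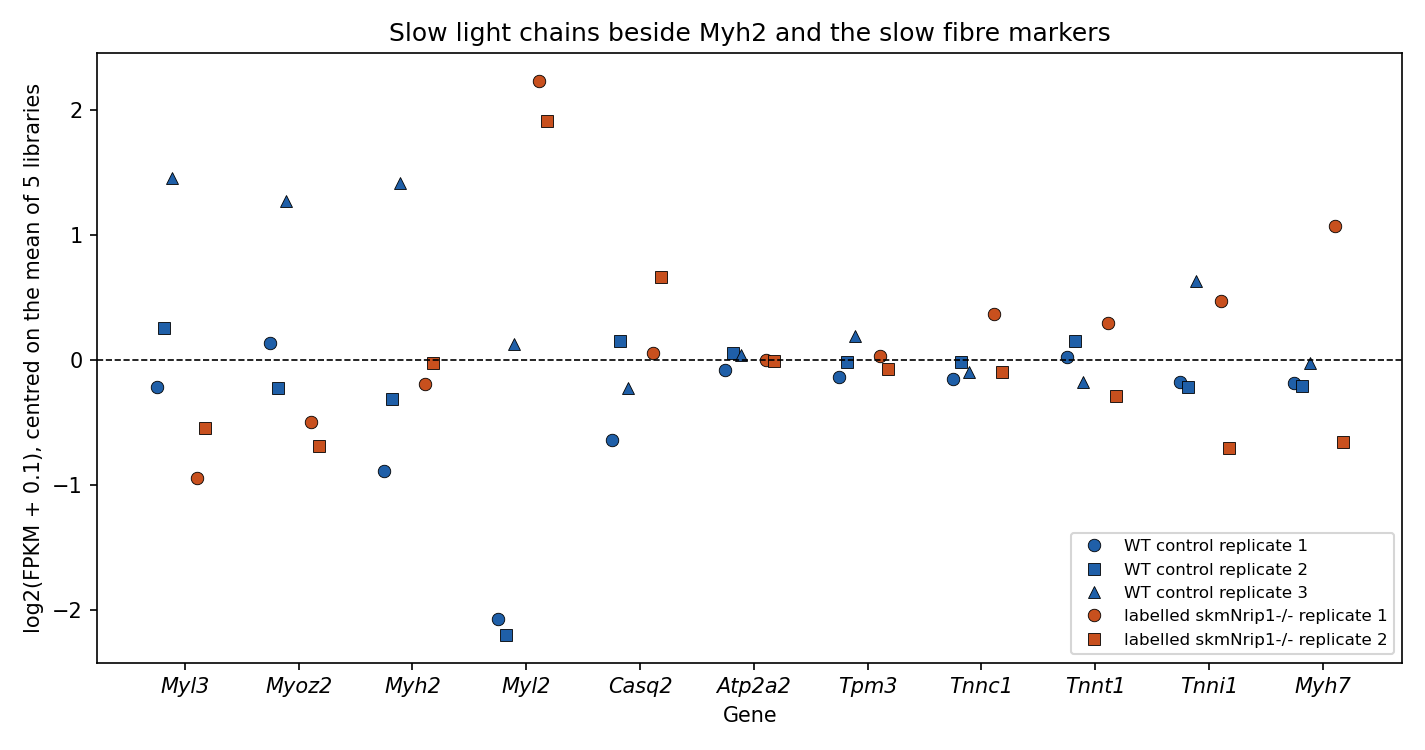
Log2(FPKM + 0.1) of Myl3, Myl2, Myh2 and the 8 slow fibre markers, each centred on its mean over the 5 libraries, with circles, squares and triangles for replicates 1, 2 and 3 (blue for WT control, orange for libraries labelled skmNrip1-/-). WT control replicate 3 is the highest point for Myl3, Myoz2, Myh2, Tnni1 and Tpm3, and the labelled pair is highest for Myl2.

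Because Myl2 and Myl3 are also heart genes, cardiac markers were read. Myh6 was the only one above the filter, with a log2 fold change of -0.73. The cardiac markers with a row summed to between 1.87 and 3.67 FPKM in WT control and to 1.84 and 1.09 FPKM in the labelled pair. Nppa, Nppb and Myl7 were not analysed here. Markers of smooth muscle had a median of -0.12 (from -0.42 for Lmod1 to -0.03 for Cnn1) and markers of developing fibres a median of -0.10 (from -0.43 for Myog to 1.75 for Ncam1). The medians were -0.03 for endothelium (Cdh5 -0.13, Kdr 0.07), 0.05 for adipocytes (Plin1 -0.36, Cidec 0.09), -0.00 for macrophages (Cd68 -0.07, Csf1r 0.06) and 0.18 for fibroblasts (Pdgfra -0.01, Col1a1 0.18), and the only satellite cell marker tested, Cdh15, was at -0.56. Red blood cell markers differed with the groups. All 5 were above 0, from 0.37 for Alas2 to 0.55 for Hbb-bt, with a median of 0.51, and their sums of 764, 661 and 511 FPKM in WT control and 996 and 827 FPKM in the labelled pair did not overlap. None of these cell type markers was called. At an unadjusted limma p of 0.05 or less, 6.57% of all tested genes were higher and 5.33% lower. At that p, 3 of the 5 red blood cell markers and 1 developing fibre marker were higher. By the same measure, 1 smooth muscle and 1 satellite cell marker were lower. The part of blood or other cells in the light chain values was not tested.

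For the 4 genes that varied most over the 5 libraries, the genes with the most similar pattern were sought among 4558 genes of at least 10 FPKM, by the root mean square difference of centred log2 values. This is a description over 5 libraries that share the group difference. Closest to Myl2 were Slc38a10 (1.06), Tmem37 (1.11) and Nrip1 itself (1.11), each higher in both labelled libraries but none near in size, given the Myl2 standard deviation of 2.11. Closest to Myl3, with a standard deviation of 0.92, were Myoz2 (0.35), Hspa1l (0.44) and the LIM domain gene Fhl1 (0.44), each highest in WT control replicate 3. Closest to Myl4 were Zc3h7a (0.11), Gm38356 (0.12) and 6430571L13Rik (0.13), and closest to Myl1 were Cdpf1 (0.05), Cdk2ap1 (0.05) and Slc37a4 (0.05).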

How the data were processed

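RNA-seq of TA muscle gave 3 WT control libraries and 2 labelled skmNrip1-/-, grouped by their labels. Per the submitters' processing notes and the study's methods, reads were quantified with Salmon 1.10.2 on mm10 with tximport used for gene values. FPKM is the unit the authors deposited, and how these were computed and from which annotation release is not given in the sources used here. The table also holds the authors' DESeq2 log2 fold changes and adjusted p-values, which were not used. FPKM are not counts, so limma 3.58.1 in R 4.3.3 (lmFit, eBayes with an intensity trend) was fitted to log2(FPKM + 0.1) of the 12148 genes whose mean reached 0.5 FPKM, without covariates, with Benjamini-Hochberg adjustment. Calls needed an adjusted p no higher than 0.05 and a fold of 1.2 or more. The log2 scale with this pseudocount understates the change of low genes. Ratios were compared by exact two-sided permutation over the 5 libraries (Python 3.11.15, scipy 1.17.1). The fit was tested on simulated data. The FPKM steps of low genes gave relative depth, from 0.814 to 1.10 times that of WT control replicate 1. GENCODE M21 (GRCm38) has 16996 of the IDs, all 9 genes described here included, and gave positions and transcripts. Named are all 9 genes, Nrip1, the lowest and highest gene of each list of related or marker genes, and the 3 closest patterns for each of the 4 most variable genes. Myh2, Myh7 and the neighbour of Myl2 were added after their values were seen. Some genes that meet this rule are left out of the text. The genes and lists were chosen with earlier results of these data known. Alternatives were other pseudocounts (1 and 0.01), no minimum or a minimum of 1 FPKM, rescaling to TPM or by the median of ratios, eBayes without trend or robust, no fold threshold, an adjusted p of 0.01, a replicate block, and each library left out by itself. No protein sequence was used here.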

Additional observations from a re-analysis of the deposited data

How the results depend on the processing

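The labels share replicate numbers 1 and 2 between the groups, but same-numbered libraries come from mice of different genotype, and WT control replicate 3 has no partner. The deviations of same-numbered libraries correlated at 0.06 and 0.10 across genes. The labelled libraries deviate from their mean by equal and opposite amounts, so these values are not independent checks and do not settle whether libraries are paired. With the replicate number as a block, 18 genes were called higher and 4 lower in place of 45 and 10, and Myl2 became the 1 gene of the 9 called (log2 fold change 4.21, limma adjusted p = 0.0111). That block fit gave the same Myl2 log2 fold change as leaving out WT control replicate 3, which is alone in its block. The calls of Myl2 under these alternatives are therefore not separate checks. At an adjusted p of 0.01, 14 genes were called higher and 3 lower. Without the trend the numbers were 22 and 3. Rescaling to TPM gave 29 higher and 59 lower, with 1 of the 9 genes, Mylk2, called lower. Leaving out each library in turn gave between 6 and 55 genes called higher, between 3 and 16 called lower, and between 0 and 1 of the 9 genes called higher (Myl2, without WT control replicate 3). The lowest number called higher, 6, came without labelled replicate 2, with 8 without labelled replicate 1, 19 without WT control replicate 3 and 27 without WT control replicate 1. The cause was not tested. With single libraries left out, Myl4 lay between -0.38 and 0.36 and Mylk4 between -0.12 and 0.22. The sign of Myl4 turned to 0.18 without WT control replicate 1 and 0.36 without labelled replicate 1. The sign of Mylk4 turned to -0.24 under TPM, -0.12 without WT control replicate 1 and -0.10 without labelled replicate 2. No ratio changed its sign under an alternative. Expression of Myl2 in WT control rests on few fragments, and all values rest on 5 libraries, which limits the precision of each interval.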
